A study of Homo sapiens with 8 samples.

Results

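The 4 arrays labelled siCTRL, of 8 in the series, hold RNA from OVCAR-3 cells that received scramble siRNA, and they are described here by themselves. They were taken by the sample titles, and all 4 carry the scramble treatment label. OVCAR-3 is an established human line of high-grade ovarian carcinoma, bought from ATCC and kept in RPMI-1640. Transfection was done in 12-well plates and RNA was taken 48 h later, so the state described is that of transfected cells and not of untouched ones. The other 4 arrays of the series hold cells that received siRNA against HBO1 (KAT7), a histone acetyltransferase, and they enter none of the values below except where quantile normalization over 8 arrays is named. The labels number the replicates but do not say that they came from separate cultures, so the spread between them may be technical.

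High-grade serous ovarian carcinoma is an epithelial cancer that keeps the transcription factor PAX8 of the Müllerian lining and sheds the mucin MUC16, the CA125 antigen measured in blood, and the secreted protein WFDC2, also called HE4. Amplification of cyclin E, encoded by CCNE1, is a known lesion of this cancer and of this line, and it drives cells from G1 into S phase. In bulk RNA a lower level of a cell type's genes can mean fewer such cells or less RNA in each, which these data cannot tell apart.

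RNA was measured on single-colour Illumina BeadChips with 47312 probes. A level below is a background-corrected, quantile-normalized intensity on the log2 scale, given as mean ± SD over the 4 arrays, and values for single arrays follow replicates 1 to 4. A gene was called detected when a probe of it had a detection p-value under 0.05 on all 4 arrays, and not detected when every probe had 0.05 or more on every array, which gives an upper bound and does not show absence. Probes bind with different strength, so an order of levels between genes is an order of probe brightness and not of transcript number. Median intensity before normalization was 224 on replicate 1 and 305 to 312 on replicates 2 to 4, and the arrays detected 20785 to 22024 probes, which is 43.9% to 46.6%.

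Replicate 1 stood apart from the other 3 arrays. Over the detected genes its Pearson correlation with them was 0.974 to 0.976, against 0.992 to 0.996 among replicates 2, 3 and 4. In a principal component analysis 72.2% of the variance between arrays lay on component 1, with replicate 1 at one end and the rest at the other. The spread between arrays and several genes whose means it moves are given with and without it, and elsewhere its part in a mean shows in the SD.

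Of 20043 genes with a symbol, 11243 (56.1%) were detected on all 4 siCTRL arrays and 6678 (33.3%) on none. The remaining 2122 were detected on 1 to 3 arrays. Levels of the detected genes ran from 6.56 to 14.85, with a median of 10.25 and quartiles at 8.51 and 11.88. Genes detected on no array had a median reading of 5.88 and a highest of 6.45, so a reading near 6 is that of background.

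The label of an ovarian carcinoma line was checked against its 5 markers, and all 5 were detected on every array. EPCAM, the adhesion molecule of simple epithelia, read 14.32, 14.62, 14.53 and 14.32. CCNE1 read 13.22, 13.04, 13.02 and 13.05 by its brighter probe and 7.74, 7.20, 7.20 and 7.87 by a second one, which was also detected on all 4 arrays. The probes lie far apart in brightness, and the brighter one varied less between arrays.

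PAX8 read 12.46, 12.10, 12.14 and 12.23, and WFDC2 read 13.01, 12.56, 12.59 and 12.42. MUC16, measured by 1 probe, read 13.93, 12.51, 12.34 and 12.23. Replicate 1 lay above the other arrays for MUC16, WFDC2, PAX8 and the brighter probe of CCNE1, with the widest gap for MUC16. The second CCNE1 probe was highest on replicate 4. For EPCAM replicate 1 was level with replicate 4 at the low end. Without normalization between arrays replicate 1 was not the highest for the markers together. Their mean was then 13.00 on replicate 1, against 13.10, 13.10 and 12.94 on replicates 2 to 4. Without replicate 1, and with the other 3 arrays normalized by themselves, the MUC16 level was 12.53 against 12.75 with all 4. These MUC16 levels are not on the same scale. PAX8 rose from 12.23 to 12.33 and CCNE1 from 13.08 to 13.20 in that step, though replicate 1 was their highest array. On the normalization of all 4 arrays, MUC16 lay between 12.23 and 12.51 on replicates 2 to 4.

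**Figure D1:**
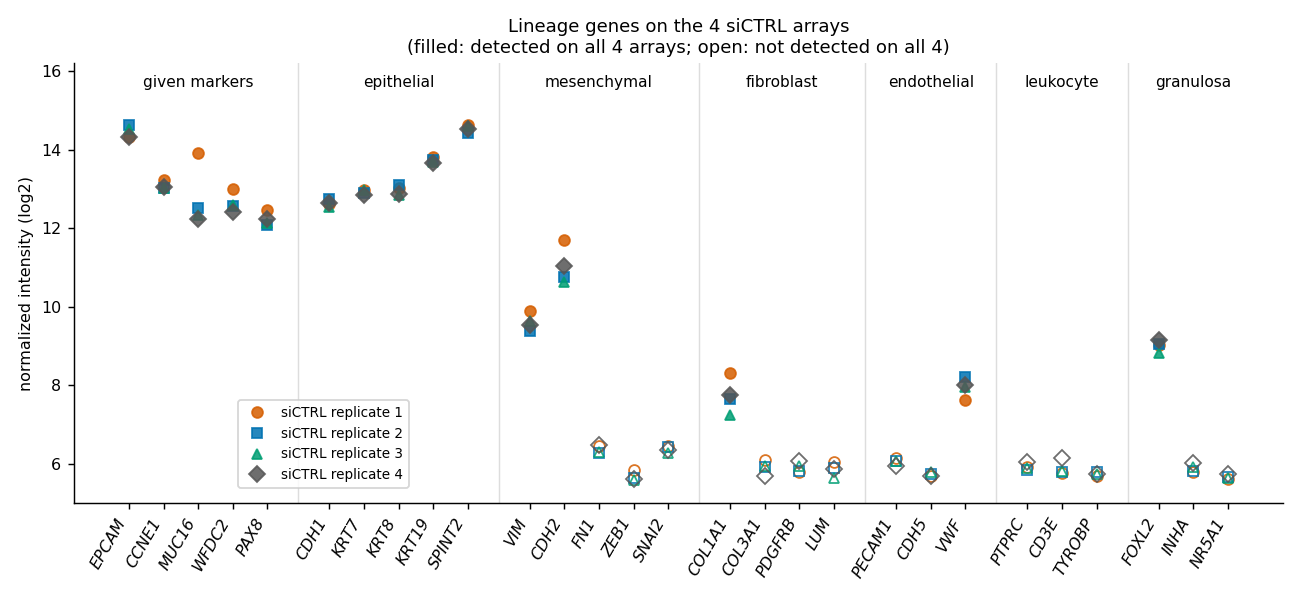
Normalized intensity (log2) of lineage genes on each of the 4 siCTRL arrays, with one symbol per replicate. Filled symbols are genes detected on all 4 arrays and open symbols genes that were not. The 5 given markers and the epithelial genes shown sit above 12, while PTPRC, CD3E, PECAM1, CDH5, COL3A1, PDGFRB, LUM, FN1, ZEB1 and SNAI2 stay near 6. In the mesenchymal, fibroblast, endothelial and granulosa groups VIM, CDH2, COL1A1, VWF and FOXL2 are detected on all 4 arrays and lie higher.

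Of a wider list of 32 serous ovarian carcinoma genes that holds PAX8, MUC16 and WFDC2, 30 were detected, against 56.1% of all genes. The members of this and of the other lists were chosen with earlier results of these data known. How far that choice shaped the shares detected was not tested. The brightest were SPON1, an extracellular matrix protein, at 14.66 ± 0.12, the surface glycoprotein CD24 at 14.60 ± 0.10, the cadherin CDH6, known from kidney and ovarian carcinoma, at 14.56 ± 0.15, and the homeobox factor EMX2 of the reproductive tract at 13.91 ± 0.22. SPON1 read 14.78, 14.55, 14.74 and 14.57 and CDH6 read 14.39, 14.74, 14.53 and 14.58. Each spans less than 0.4 between its lowest and highest array. WT1, a nuclear marker of serous histology, was detected at 10.95 ± 0.34, and SOX17, a partner of PAX8 in these tumours, at 11.05 ± 0.038. MECOM, a transcription factor gene often amplified in serous tumours, stood at 11.64 ± 0.27 and the surface antigen MSLN (mesothelin) at 13.38 ± 0.083. Of the kallikrein proteases, KLK5 was at 12.89 ± 0.20, KLK6 at 12.67 ± 0.16, KLK7 at 10.09 ± 0.20, KLK10 at 9.13 ± 0.11 and KLK8 at 8.59 ± 0.25, and KLK11 was detected on 3 arrays. ESR1, the oestrogen receptor alpha, was the member detected on no array, with readings of 5.95, 6.12, 5.94 and 6.37 on its 1 probe. CLDN4, a claudin common in this tumour, was detected at the edge of background, at 6.70 ± 0.18, again by 1 probe.

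Among 39 measured epithelial genes, 35 (89.7%) were detected, against 56.1% of all genes. The protease inhibitor SPINT2 was at 14.55 ± 0.100, the vesicle protein MAL2 at 14.05 ± 0.26 and the simple-epithelial keratins KRT19, KRT8, KRT7 and KRT18 at 13.73 ± 0.067, 12.96 ± 0.12, 12.92 ± 0.062 and 10.59 ± 0.12. CDH1, which encodes E-cadherin, read 12.63, 12.75, 12.55 and 12.65. Its 4 values lie within 0.2 of each other. The epithelial transcription factors ELF3, EHF, OVOL2 and GRHL2 were detected at 11.73 ± 0.19, 10.60 ± 0.50, 12.45 ± 0.14 and 8.83 ± 0.16. The splicing factor ESRP1 was detected at 8.58 ± 0.095, while its paralogue ESRP2 and the tight-junction gene OCLN were detected on no array.

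Of 20 mesenchymal genes, 11 were detected, a share near the 56.1% of all genes, and 8 were detected on no array, against 33.3% of all genes. The undetected ones include SNAI1, SNAI2, ZEB1, ZEB2 and TWIST2, transcription factors that repress epithelial genes, and FN1 and MMP2, a matrix protein and a matrix protease. TWIST1 was detected, at 7.76 ± 0.41. The brightest members were the calcium-binding protein S100A4 at 13.35 ± 0.090, the caveolar coat protein CAV1 at 12.45 ± 0.081, the matrix protein TNC at 11.93 ± 0.49 and CDH2, N-cadherin, at 11.03 ± 0.47. VIM, the vimentin filament gene, read 9.90, 9.39, 9.65 and 9.55 by one probe and 8.09, 7.22, 6.67 and 7.70 by another. CDH2 read 11.69, 10.77, 10.63 and 11.03. VIM and CDH2 were both highest on replicate 1. By their detection p-values, E-cadherin and N-cadherin were both detected on every array.

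In the lists of 12 other lineages, 31 of 132 measured members (23.5%) were detected on all 4 arrays, against 56.1% of all genes, and 79 on none. Not every list had a low share. For clear cell and endometrioid genes (3 of 5) and mesothelial genes (5 of 10) it was near the 56.1% of all genes. The remaining lists all had lower shares. No mucinous or intestinal gene of 14 was detected on all 4 arrays, and CDX2, CDX1, TFF2, VIL1, LGALS4 and REG4 were detected on none. Among 17 leukocyte genes, PTPRC (CD45), CD3E, CD3D, TYROBP, CD163 and LYZ were detected on none. CD14, a lipopolysaccharide co-receptor, was detected at 8.91 ± 0.37 and the B-cell receptor component CD79A at 6.84 ± 0.26. Other probes of both genes, with means of 5.95 for CD14 and 6.18 for CD79A, were detected on no array. The lysosomal gene CD68 read 12.28, 10.14, 10.27 and 10.12 by its brightest probe, 8.18, 9.00, 9.12 and 8.99 by a second and at background, with a mean of 5.87, by the remaining one. Its brightest probe was highest on replicate 1 and the next one lowest there, so CD68 has no settled order between arrays.

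The fibroblast list had 4 of 14 members detected, FBLN1 at 11.05 ± 0.12, ACTA2 at 8.49 ± 0.21, COL1A1 at 7.75 ± 0.44 and COL1A2 at 6.64 ± 0.16, and COL3A1, PDGFRA, PDGFRB, LUM, FAP and THY1 on none. Of 10 endothelial genes, VWF was detected at 7.96 ± 0.25 and EGFL7 at 7.35 ± 0.15, and PECAM1, CDH5, TEK, CLDN5, TIE1 and ESAM on none. Of 13 sex cord and granulosa genes, the activin subunit INHBB was at 11.25 ± 0.32, the granulosa factor FOXL2 at 9.02 ± 0.14 and the steroid-making enzyme CYP11A1 at 6.68 ± 0.19, and INHA, NR5A1, FSHR, LHCGR, STAR and CYP17A1 were detected on none. Among 10 hepatocyte genes ALB, AFP and APOA1 were detected, at 8.71 ± 0.28, 8.03 ± 0.19 and 7.44 ± 0.090. The other probe of ALB, with a mean of 5.99, was detected on no array, nor was the other probe of FOXL2, with a mean of 5.86. Of 12 germ and pluripotency genes, LIN28B, a repressor of let-7 microRNAs, and SALL4 were detected at 10.94 ± 0.18 and 8.01 ± 0.56, with NANOG, LIN28A, PRDM14, DDX4, DAZL and SYCP3 on none. In the neuronal list TUBB3, a beta-tubulin also made by many carcinomas, was at 12.23 ± 0.12, the granule protein CHGA at 8.90 ± 0.13 and the enolase ENO2 at 7.94 ± 0.29, 3 of 11 detected in all. Mesothelial genes were detected for 5 of 10, among them MSLN and WT1, which serous tumours share, the uroplakin UPK1B at 12.50 ± 0.052 and PDPN (podoplanin) at 7.26 ± 0.13. Of 5 clear cell and endometrioid genes the arginine enzyme ASS1, the peroxidase GPX3 and the annexin ANXA4 were detected, ASS1 at 13.96 ± 0.18 and ANXA4 at 7.82 ± 0.65. MITF was the 1 melanocyte gene of 6 detected, at 7.75 ± 0.22, and TRPS1 and NKX2-1 were the 2 detected of 10 genes of breast, lung, thyroid and prostate, at 9.40 ± 0.17 and 7.36 ± 0.26. What share of cells these levels come from was not tested.

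**Figure D2:**
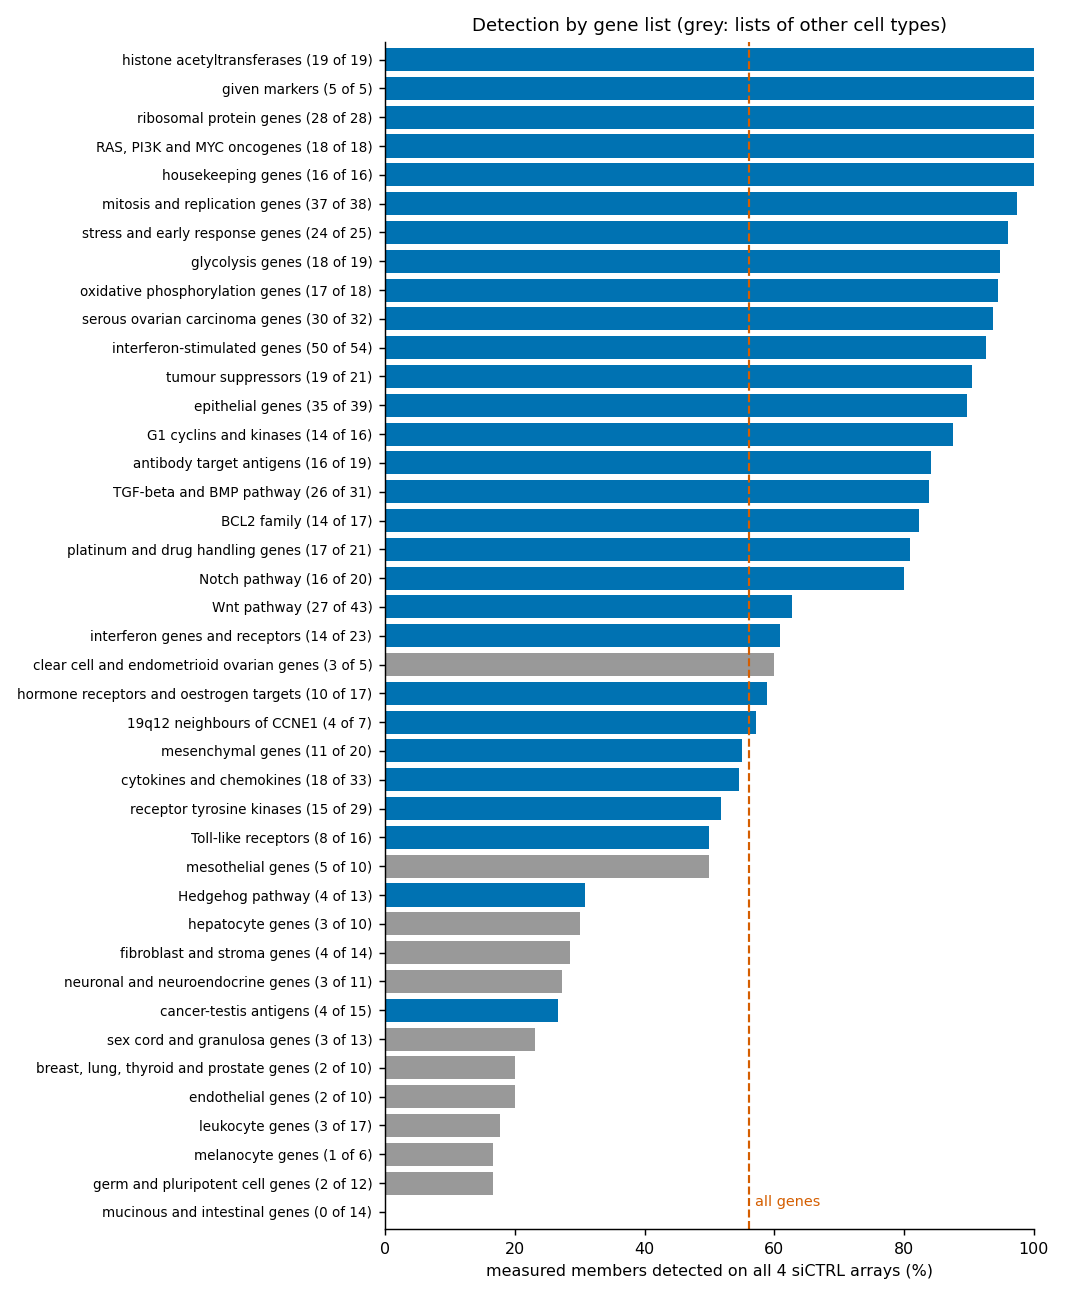
Percentage of measured members detected on all 4 siCTRL arrays for each gene list, with counts in the labels and the 56.1% of all genes as a dashed line. The lists of other cell types (grey) lie between 0% and 60%, and 5 lists in blue, among them the ribosomal protein genes and the RAS, PI3K and MYC oncogenes, reach 100%.

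The brightest detected genes were those of protein synthesis, energy supply and the cytoskeleton. EEF1A1, the elongation factor that brings transfer RNA to the ribosome, led at 14.85 ± 0.15, followed by the growth-related protein TPT1 at 14.79 ± 0.054 and the ribosomal protein genes RPS6, RPL41, RPS12, RPS13, RPL12, RPS2 and RPS27, between 14.66 and 14.77. The other members of the brightest 25 include the respiratory chain genes COX7C and ATP5F1B at 14.75 ± 0.073 and 14.71 ± 0.13, the lactate dehydrogenase LDHA at 14.74 ± 0.18, the redox protein TXN at 14.74 ± 0.10, the proteasome subunit PSMA6 at 14.74 ± 0.074, the tubulin TUBA1C at 14.71 ± 0.18, the actin ACTG1 at 14.68 ± 0.34, the actin-binding TMSB4X at 14.66 ± 0.10, the chaperone HSP90AA1 at 14.70 ± 0.18, the membrane-binding ANXA2 at 14.67 ± 0.12 and the histone gene H3-3A at 14.67 ± 0.033. These 25 genes lie between 14.66 and 14.85 while their SDs reach 0.34 (ACTG1), so the order within them is not settled by 4 arrays. Of the 25, 4 carry symbols of pseudogenes or retrocopies (ATP5F1EP2, RPL13AP5, H3P6 and ANXA2P1) and PPIAL4A belongs to a family of near-identical copies, and reads of these probes may come from the parent genes.

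**Figure D3:**
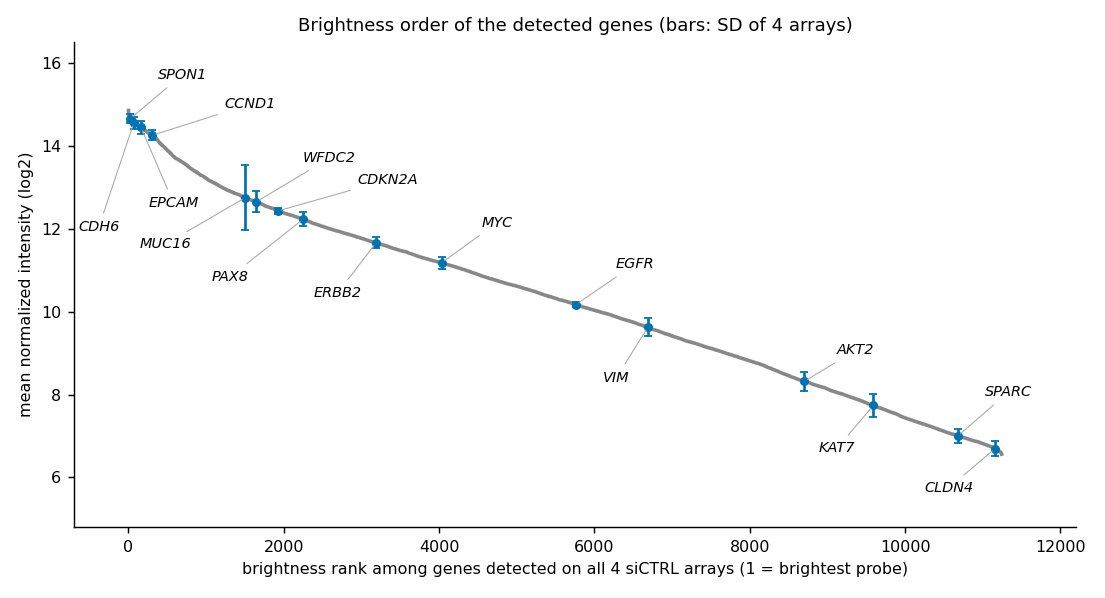
Mean normalized intensity (log2, SD of 4 arrays as bars) against brightness rank of the 11243 genes detected on all 4 siCTRL arrays, with named genes marked. SPON1, CDH6, CCND1 and EPCAM lie at the bright end, KAT7, SPARC and CLDN4 at the dim end, and MUC16 has the longest bar of those marked.

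All 28 ribosomal protein genes and all 16 housekeeping genes measured were detected, against 56.1% of all genes. So were 37 of 38 genes of replication and mitosis. MCM7, a subunit of the replicative helicase, was at 14.39 ± 0.21, the securin PTTG1 at 14.26 ± 0.17, the ubiquitin-conjugating enzyme UBE2C at 14.12 ± 0.32 and CDC20, an activator of the anaphase-promoting complex, at 14.04 ± 0.20. MKI67, which encodes the Ki-67 antigen, was much dimmer, at 7.74 ± 0.18. Of 19 glycolysis genes 18 were detected, with the enzymes GAPDH, ENO1 and TPI1 at 14.55 ± 0.16, 14.51 ± 0.15 and 14.27 ± 0.31, and of 18 oxidative phosphorylation genes 17. The exceptions were the glucose transporter SLC2A3, detected on no array, and NDUFS1, detected on 3. SLC2A1, the other glucose transporter of the list, was at 12.97 ± 0.18.

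The G1 list had 14 of 16 members (87.5%) detected, against 56.1% of all genes. CCND1, cyclin D, was at 14.26 ± 0.13, its kinase CDK4 at 14.06 ± 0.15, CDK6 at 13.13 ± 0.083, SKP2, the ubiquitin ligase subunit that removes the inhibitor p27, at 13.13 ± 0.22 and CDK2, the kinase partner of cyclin E, at 11.92 ± 0.14. CCNE2, the second cyclin E gene, was detected on no array, and CCND2 on 1. Thus of the cyclin E pair CCNE1 was the detected gene. CDKN2A, the p16 inhibitor of CDK4 and CDK6, was detected at 12.43 ± 0.077 and CDKN1B, which encodes p27, at 12.60 ± 0.048.

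CCNE1 lies on chromosome 19, and in RefSeq order its nearest measured neighbours were bright on one side and at or near background on the other. C19orf12, the next gene on the bright side, read 13.83, 13.84, 13.82 and 13.99, PLEKHF1 read 11.87, 12.22, 12.01 and 12.11 and POP4, a subunit of ribonuclease P, read 13.52, 13.66, 13.64 and 13.54. On the other side the adjacent gene was not among those measured. ZNF536, 2 places away with a mean of 6.50, was detected on 2 arrays, and TSHZ3, 3 places away with a mean of 5.94, on none. Farther out both sides were mixed. VSTM2B, on the side of C19orf12, had a mean of 6.39 and was detected on 2 arrays. PDCD5, on the side of ZNF536, was at 13.28. Within 10 places on either side, 11 of 17 measured genes were detected, against 56.1% of all genes. Copy number was not measured on these arrays.

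Of 29 receptor tyrosine kinases 15 (51.7%) were detected, near the 56.1% of all genes. Where every probe of a gene had to be detected, 7 of 29 were, a lower share than the 8808 of 20043 over all genes. ERBB3 was at 11.92 ± 0.14, ERBB2 at 11.66 ± 0.13, the ephrin receptor EPHA2 at 11.53 ± 0.14 and the collagen receptor DDR1 at 11.48 ± 0.48. EGFR read 10.19, 10.17, 10.10 and 10.23 by its brightest probe, while 2 of its 4 probes were detected on no array. For ERBB2 1 of 3 probes was detected. FGFR3 stood at 11.29 ± 0.22 and MET, the receptor of hepatocyte growth factor, at 10.60 ± 0.24. FGFR1, FGFR2, IGF1R, PDGFRA, PDGFRB and ERBB4 were detected on no array.

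All 18 measured genes of the RAS, PI3K and MYC list were detected, against 56.1% of all genes. The SRC-family kinase YES1 was at 13.54 ± 0.15, RAB25, a vesicle GTPase of the chromosome 1 gain in ovarian cancer, at 12.60 ± 0.20, MAP2K1 at 12.48 ± 0.22 and JUN at 12.42 ± 0.14. PRKCI, an atypical protein kinase C gene often gained in serous tumours, was at 12.39 ± 0.20, the transcription factor MYC at 11.18 ± 0.14 and the RAS GTPase HRAS at 11.47 ± 0.13. The kinase genes AKT1 and AKT2 were at 12.27 ± 0.050 and 8.32 ± 0.23. MYC read 11.32, 11.05, 11.27 and 11.07 and AKT2 read 8.16, 8.51, 8.08 and 8.53. MYC varied by less than 0.3 between arrays and AKT2 was higher on replicates 2 and 4 than on 1 and 3.

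Of 21 tumour suppressor genes 19 (90.5%) were detected, against 56.1% of all genes. Where every probe had to be detected, 11 of 21 were, against 8808 of 20043 over all genes. ARID1A, a chromatin remodelling subunit, was at 12.74 ± 0.12, CDKN2B at 12.27 ± 0.062 and RB1, the restraint on E2F factors, at 9.42 ± 0.42. OPCML, an adhesion molecule gene known to be silenced in ovarian cancer, was detected on no array, with readings of 5.63, 5.64, 5.57 and 5.61, and DAB2 was detected on 2.

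In the BCL2 family 14 of 17 genes (82.4%) were detected, against 56.1% of all genes. The survival genes BCL2L1, MCL1 and BCL2L2 were at 12.94 ± 0.081, 11.95 ± 0.18 and 11.49 ± 0.12, and BCL2 itself was dim, at 6.88 ± 0.22. BID, which links death receptors to mitochondria, was at 12.92 ± 0.12. Of 21 genes of platinum and drug handling 17 (81.0%) were detected, against the same 56.1%. The glutathione transferase GSTP1 was at 14.34 ± 0.29 and TXNRD1 at 13.30 ± 0.12. The quinone reductase NQO1 was at 13.23 ± 0.12 and the metallothionein MT1X at 12.45 ± 0.15. The drug efflux pumps ABCB1, ABCC2 and ABCG2 and the transferase GSTA1 were detected on no array, and the pumps ABCC4 and ABCC3 were detected at 10.33 ± 0.14 and 9.63 ± 0.78.

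Surface antigens used as antibody targets were detected for 16 of 19 genes (84.2%), against 56.1% of all genes. Next to CDH6, EPCAM, MSLN and MUC16, already given, MUC1 was at 13.00 ± 0.22, the inhibitory Notch ligand DLL3 at 12.53 ± 0.15, the B7-family proteins CD276 and VTCN1 at 11.67 ± 0.15 and 10.83 ± 0.22, SLC34A2, the sodium phosphate transporter NaPi2b, at 11.43 ± 0.26 and FOLR1, the folate receptor, at 9.88 ± 0.33. FOLR1 read 10.06, 10.25, 9.63 and 9.59 by its brightest probe, and 1 of its 3 probes was detected on no array. CD274, the PD-L1 ligand, and CEACAM5 were detected on no array and NECTIN4 on 1.

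Of 17 hormone receptor and oestrogen target genes 10 (58.8%) were detected, near the 56.1% of all genes. ESR1, ESR2 and PGR, the receptors of oestrogen and progesterone, were detected on no array, nor were TFF1, GATA3 and CXCL12. NR3C1, the glucocorticoid receptor, was detected at 7.39 ± 0.47. The brightest members were XBP1, a factor of the unfolded protein response, at 14.11 ± 0.19, NRIP1, a nuclear receptor corepressor, at 12.04 ± 0.097, CTSD, a lysosomal protease, at 10.41 ± 0.10 and IGFBP4 at 10.12 ± 0.082.

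Of the signalling pathways listed, Hedgehog had the smallest share of its members detected, 4 of 13 (30.8%, against 56.1% of all genes). The ligands SHH, IHH and DHH, the receptor PTCH1 and the targets GLI1 and HHIP, which rise when the pathway is active, were detected on no array. The signal transducer SMO was detected at 8.47 ± 0.18 and the co-receptor GAS1 at 13.29 ± 0.12. GAS1 read 13.15, 13.29, 13.30 and 13.43. It was bright on every array, while the other detected members, SMO, the factor GLI3 at 7.48 ± 0.097 and the co-receptor BOC at 7.14 ± 0.44, were dim.

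In the Wnt list 27 of 43 genes (62.8%) were detected, not far from the 56.1% of all genes. The ligands WNT5A and WNT10A were at 11.31 ± 0.13 and 11.02 ± 0.077, and WNT1, WNT3A, WNT4 and WNT2 were detected on no array. Of the receptors, RYK was at 14.16 ± 0.19 and FZD6 at 10.98 ± 0.11. GSK3B, the kinase that marks beta-catenin for destruction, was at 11.80 ± 0.093. CTNNB1, beta-catenin, was at 10.99 ± 0.16 and its target AXIN2 at 9.00 ± 0.12, and the target LGR5 was detected on no array.

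The Notch list had 16 of 20 genes (80.0%) detected, against 56.1% of all genes. The receptors NOTCH3, NOTCH1 and NOTCH2 were at 11.85 ± 0.19, 11.79 ± 0.52 and 10.25 ± 0.28. The ligand JAG1 was at 11.30 ± 0.39. The targets HES4, HEY2 and HES1 were at 14.41 ± 0.11, 11.63 ± 0.22 and 9.79 ± 0.15. NCSTN and ADAM10, parts of the proteases that cut Notch receptors, were at 12.70 ± 0.24 and 12.57 ± 0.14. NOTCH4 and DLL4, known from endothelium, were detected on no array. Of 31 TGF-beta and BMP genes 26 (83.9%) were detected, against the same 56.1%. The ligand BMP7 was at 13.77 ± 0.18, the receptor TGFBR2 at 12.44 ± 0.25, the antagonist FST at 12.85 ± 0.36 and the BMP targets ID1, ID2 and ID3 at 13.90 ± 0.15, 13.15 ± 0.28 and 12.24 ± 0.18. The ligands TGFB1, BMP2, BMP4 and INHBA were detected on no array, and TGFB2 was at 9.14 ± 0.16.

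Of 16 Toll-like receptor and adaptor genes 8 were detected, a share near the 56.1% of all genes. At a detection p under 0.01, 4 of 16 were, a lower share than the 10132 of 20043 over all genes. TLR3, which senses double-stranded RNA, was near background at 7.01 ± 0.27, and TLR2, TLR4, TLR7, TLR8, TLR9 and TLR1 were detected on none. The kinase gene IRAK1 was at 12.90 ± 0.17 and the adaptor genes TICAM1 and MYD88 at 11.20 ± 0.28 and 9.42 ± 0.23.

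Of 33 cytokine and chemokine genes 18 (54.5%) were detected, near the 56.1% of all genes. IL18 was at 14.24 ± 0.25, CXCL8, a chemokine for neutrophils, at 13.75 ± 0.17 and CXCL1, a related chemokine, at 13.03 ± 0.29. The inflammatory cytokine genes IL6 and TNF were at 9.88 ± 0.42 and 9.76 ± 0.26. IL1B, IL1A, IL33, IL2, IL4 and IL17A were detected on no array. IL10 read 14.03, 12.28, 12.67 and 12.41 by one probe, while its other probe read 5.81, 5.85, 5.92 and 5.87 and was detected on none, so its level is not settled.

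Of 15 cancer-testis genes 4 (26.7%) were detected, against 56.1% of all genes, and none of the 4 by every one of its probes. PRAME, a repressor of retinoic acid signalling, was at 12.65 ± 0.15 and SSX2 at 10.51 ± 0.37. SSX1 was at 9.39 ± 0.23 and MAGEA10 at 8.16 ± 0.83. The SSX genes are near-identical copies that a probe may not tell apart. MAGEA1, MAGEA4, MAGEB2, MAGEC1, PAGE1 and SYCP1 were detected on no array.

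All 19 histone acetyltransferases and partner subunits measured were detected, against 56.1% of all genes. HAT1 was at 12.78 ± 0.13, KAT2A at 12.36 ± 0.13, the scaffold BRPF1 at 12.33 ± 0.22 and CREBBP at 11.96 ± 0.048. KAT7, the enzyme targeted on the other arrays of the series, was among the dimmer ones, at 7.74 ± 0.29. Its 1 probe read 7.68, 7.97, 7.94 and 7.35, lowest on replicate 4. Stress and early response genes were detected for 24 of 25, with HSPB1 at 14.38 ± 0.19, HSPA8 at 14.37 ± 0.079, ATF4 at 14.14 ± 0.34 and HSPH1 at 13.58 ± 0.16.

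Genes that carry out the interferon response were detected, while none of the listed ligand genes was detected on all 4 arrays. Receptors, kinases and ligands together had 14 of 23 members (60.9%) detected, near the 56.1% of all genes. IFNA1, IFNA2, IFNB1, IFNG, IFNL1 and IFNL2 were detected on no array. The receptor chains IFNAR1, IFNAR2, IFNGR1 and IFNGR2 were detected at 10.32 ± 0.17, 9.97 ± 0.16, 12.21 ± 0.086 and 13.57 ± 0.093, the lambda receptor chains IL10RB and IFNLR1 at 13.41 ± 0.088 and 7.83 ± 0.10, the kinases JAK1 and TYK2 at 11.70 ± 0.15 and 11.64 ± 0.28 and the factor IRF9 at 12.21 ± 0.34. IFNE, the interferon made by reproductive tract epithelium, was detected on replicate 1 only, where its 3 probes read 7.93, 8.06 and 8.09. On replicates 2 to 4 the same probes stayed between 5.92 and 6.44, at background.

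Of 54 interferon-stimulated genes 50 (92.6%) were detected, against 56.1% of all genes. CMPK2 was detected on no array and OAS2, TRIM22 and CXCL11 were detected on 3. Such genes are switched on when the complex that holds IRF9 binds a short repeat of GAAA in their promoters. The antigen-presenting light chain B2M was at 14.45 ± 0.19, MX1, a GTPase that blocks influenza and other viruses, at 13.63 ± 0.70, and the membrane proteins IFITM3 and IFITM2 at 13.35 ± 0.26 and 13.29 ± 0.059. ISG15, a ubiquitin-like protein, was at 12.76 ± 0.52 and the RNA-binding IFIT1 at 11.75 ± 1.19.

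Many of these genes differed between the arrays. IFIT1 read 10.07, 12.61, 11.74 and 12.57, IFI27 10.33, 12.12, 11.11 and 12.03, IFIT3 8.93, 10.53, 10.49 and 10.76 and MX1 12.76, 14.27, 13.37 and 14.12. In all 4 genes replicate 1 was the lowest and replicate 3 lay below replicates 2 and 4. A second probe of IFIT3 that was detected on all arrays read 8.36, 9.94, 9.10 and 9.96, in the same order of low and high arrays.

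Over the 50 detected members the list mean was 10.17, 10.95, 10.58 and 10.94 on replicates 1 to 4. Its SD of 0.368 was the largest of 27 lists with at least 5 detected members, ahead of the 5 given markers at 0.242. Of the 50 genes 40 (80.0%) were lowest on replicate 1, against 42.6% of all detected genes, and 19 (38.0%) had an SD of 0.5 or more, against 3.74%. The first of these contrasts depends on the scaling. Without normalization between arrays 47 of the 50 were lowest on replicate 1, against 85.4% of all detected genes. With median scaling they were 44, against 59.7%. The share behind the second contrast moves too. Detected genes with an SD of 0.5 or more numbered 420, but 1943 without normalization between arrays and 196 without background correction. For the list alone they were not counted on those scales. Without replicate 1 the SD of the list mean was 0.214. Median scaling and quantile normalization over all 8 arrays left replicate 1 lowest and replicate 3 below replicates 2 and 4.

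**Figure D4:**
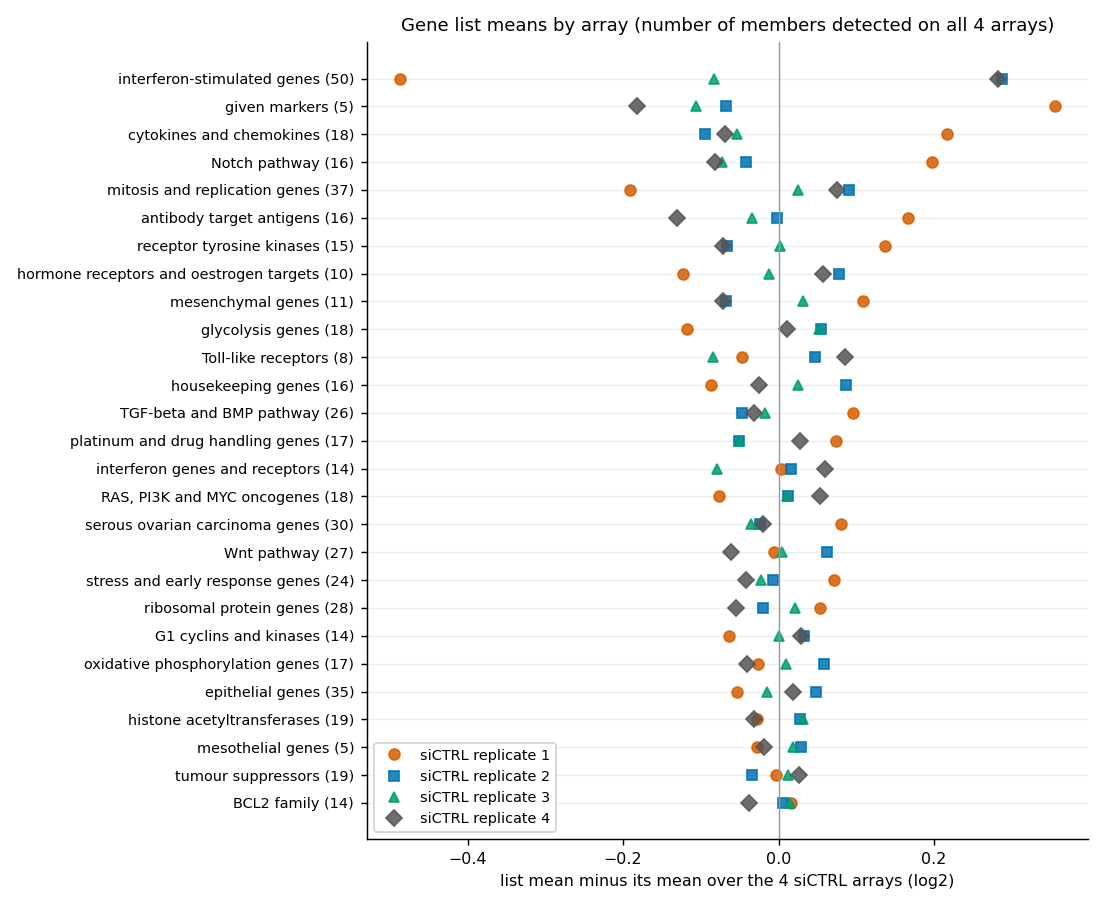
Mean level of each gene list on each siCTRL array minus its mean over the 4 arrays (log2), for the 27 lists with at least 5 members detected on all 4 arrays, sorted by their SD. The interferon-stimulated genes are at the top with replicate 1 far to the left, and the other lists lie within 0.4 of 0.

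Among detected interferon-stimulated genes with a match to the repeat, genes of a single chromosome set aside, 6 had the largest SD between arrays. Each of the 6 has an SD of 0.5 or more and 2 matches, and stretches of their promoters are shown. They are RefSeq sequences on GRCh38.p14, given 5′ to 3′ along the gene's strand and upstream of its start, and capitals mark each match to GAAANNGAAA, searched on both strands with overlapping matches counted separately, so that a match on the reverse strand shows as TTTCNNTTTC. Of the 2 matches of IFI44L 1 lies outside the stretch shown. IFIT1 is at chr10:89392475-89392574 on the plus strand, IFI27 at chr14:94110596-94110695 on the plus strand, IFIT3 at chr10:89327830-89327929 on the plus strand, IFI44L at chr1:78620330-78620429 on the plus strand, IFIT5 at chr10:89414504-89414567 on the plus strand and DDX60 at chr4:168318753-168318850 on the minus strand.
IFIT1: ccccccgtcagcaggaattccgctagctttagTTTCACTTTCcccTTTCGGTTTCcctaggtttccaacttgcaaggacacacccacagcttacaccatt
IFI27: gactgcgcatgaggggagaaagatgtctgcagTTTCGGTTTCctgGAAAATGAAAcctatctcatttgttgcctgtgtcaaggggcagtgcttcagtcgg
IFIT3: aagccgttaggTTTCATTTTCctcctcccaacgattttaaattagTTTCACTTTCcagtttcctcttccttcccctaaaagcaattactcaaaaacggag
IFI44L: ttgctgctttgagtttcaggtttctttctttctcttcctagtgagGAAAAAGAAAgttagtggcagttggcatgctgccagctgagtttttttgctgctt
IFIT5: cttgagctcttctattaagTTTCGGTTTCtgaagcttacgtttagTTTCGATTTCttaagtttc
DDX60: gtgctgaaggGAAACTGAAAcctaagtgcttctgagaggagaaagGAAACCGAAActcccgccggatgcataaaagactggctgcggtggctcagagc

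A match was present within 250 bases upstream of the start in 27 of the 43 detected interferon-stimulated genes with a promoter in the table (62.8%), against 3.07% of all 27305 promoters and 2.27% of the promoters of detected genes. Genes of the list with an SD of 0.5 or more held a match in 11 of 17 cases (64.7%) and those with a smaller SD in 16 of 26 (61.5%). A match is a stretch of letters and not a measured binding site.

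Between the 4 arrays the median SD of a detected gene was 0.177, with quartiles at 0.117 and 0.262. The median ratio of the highest to the lowest array was 1.32-fold. With genes cut into 10 equal bins by level, the median SD was 0.228 in the dimmest bin and 0.26 in bin 2, fell in each further bin to 0.125 in bin 9 and was 0.146 in the brightest bin. In all, 420 genes (3.74%) had an SD of 0.5 or more. Without replicate 1, with the other arrays normalized by themselves, the median SD was 0.120 and 67 genes had such an SD.

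**Figure D5:**
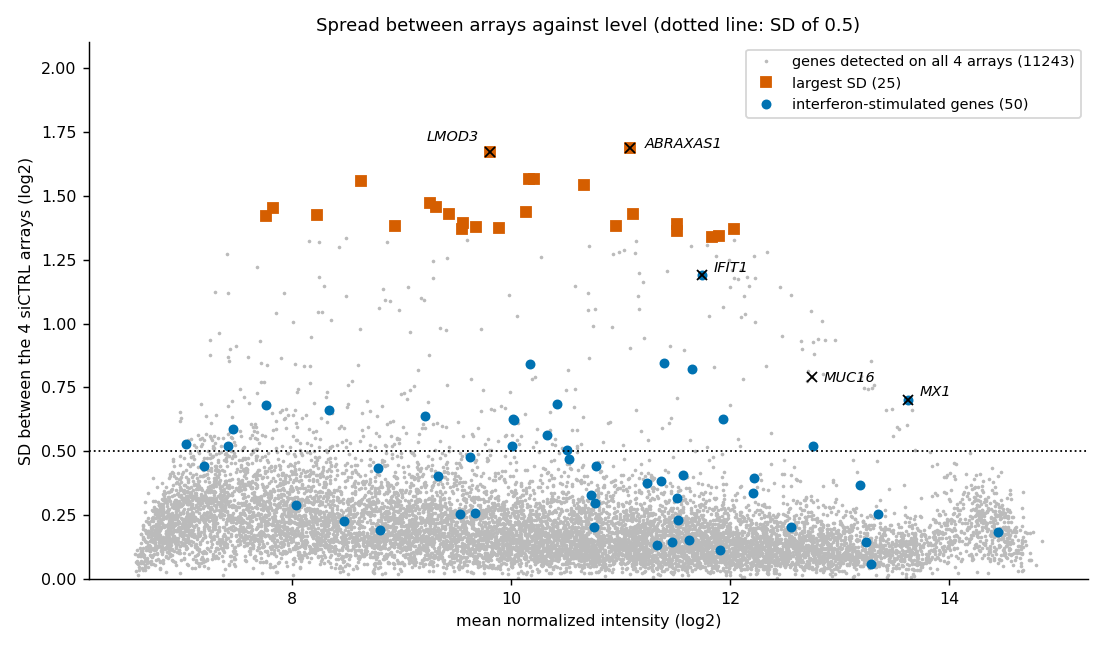
SD between the 4 siCTRL arrays (log2) against mean normalized intensity (log2) for the 11243 detected genes, with the 25 genes of largest SD and the 50 interferon-stimulated genes marked. The dotted line is an SD of 0.5, which 420 genes reach, 19 of them interferon-stimulated, and the squares lie above 1.3.

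Replicate 1 was more than 1 log2 unit above all other arrays for 213 genes and more than 1 below for 32. Without normalization between arrays these counts were 126 above and 711 below, so the balance between them turned, and without background correction the count below was 3. For each of the other arrays these counts were 0 to 2. All 25 genes of the largest SD were highest on replicate 1, as were 29.3% of all detected genes. ABRAXAS1, a subunit of a DNA repair complex that binds ubiquitin, read 13.61, 10.14, 10.27 and 10.34, the sarcomeric gene LMOD3 12.31, 9.05, 8.79 and 9.08, the cytoskeletal gene SHROOM4 12.54, 9.32, 9.33 and 9.63 and the mitochondrial fusion gene MIGA1 12.51, 9.29, 9.49 and 9.37. In each of these genes replicates 2 to 4 lie within 0.4 of each other and replicate 1 lies nearly 3 or more above them. The other 21 include the nicotinic receptor subunit CHRNA5, the sodium-coupled transporter SLC5A8, the somatostatin receptor SSTR2, the hormone LEP, the cytokine TNFSF15, the protease RHBDL2, the protocadherin PCDHB9, the zinc finger genes ZNF577, ZNF483 and ZNF682 and the ribosomal RNA entry RNA28SN5. None of the 25 is in a gene list used here, and the lists hold 525 of the 11243 detected genes. None of the 22 with a promoter in the table holds the GAAA repeat, against 2.27% of the promoters of detected genes. Both shares are small, so neither absence sets the 25 genes apart.

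Other probes of the same genes mostly did not follow. For the 213 genes, 64 had a further probe detected on all arrays, and 8 of these 78 probes were also more than 1 above on replicate 1. For the 32 genes below, 2 of 11 further probes were more than 1 below. CHRNA5 read 12.96, 9.74, 9.80 and 10.15 by the probe of large SD and 10.11, 10.12, 10.29 and 10.24 by its other probe, which was flat over the arrays. ZNF682 read 14.09, 11.37, 11.38 and 11.30 by the brightest of its 3 probes, and its second detected probe read 7.80, 7.60, 7.72 and 7.84. Whether the single-probe changes come from the array or from the RNA was not tested.

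Among lists with at least 5 detected members, those other than the interferon-stimulated genes and the 5 given markers had SDs of 0.145 or less for their means. The genes of replication and mitosis averaged 11.96, 12.24, 12.17 and 12.22, and 29 of 37 were lowest on replicate 1, against 42.6% of all detected genes. Without normalization between arrays 37 of 37 were lowest there, against 85.4%. The Notch list and the cytokine list were highest on replicate 1, with SDs of 0.132 and 0.145 for their means, and 0.021 and 0.020 over replicates 2 to 4. The leukocyte list, with the 3 detected members CD14, CD79A and CD68, averaged 9.53, 8.38, 8.69 and 8.67, an SD of 0.498 that was 0.176 over replicates 2 to 4. CD68, whose probes disagree, is part of that mean.

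Ribosomal protein genes averaged 14.07, 14.00, 14.04 and 13.96, and epithelial genes 11.14, 11.24, 11.18 and 11.21. Without normalization between arrays the epithelial mean was 10.72 on replicate 1 and 11.42, 11.31 and 11.33 on the others. From the lowest to the highest array the list mean spanned 0.116 for serous genes, 0.129 for the RAS, PI3K and MYC list and 0.208 for receptor tyrosine kinases, which were highest on replicate 1. The list means of tumour suppressors and of the BCL2 family had the smallest SDs among lists with at least 5 detected members, 0.026 each.

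Several genes given above by their mean over 4 arrays had replicate 1 apart. Over replicates 2 to 4 of the same normalization, ABCC3 was at 9.25 ± 0.14, against 9.63 ± 0.78 over all 4. DDR1 was at 11.24 ± 0.069 over those 3 arrays, NOTCH1 at 11.54 ± 0.17, JAG1 at 11.10 ± 0.065 and SALL4 at 7.74 ± 0.21, each lower than over all 4. ANXA4 was at 8.14 ± 0.13, EHF at 10.83 ± 0.24 and NR3C1 at 7.63 ± 0.079, each higher than over all 4.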

How the data were processed

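RNA of the 4 siCTRL samples was hybridised to single-colour Illumina BeadChips as biotin-labelled cRNA made with the Ambion MessageAmp kit, per the labels' protocols. The deposited table gives, for every probe on every array, a linear intensity that was not normalized and, from the authors, a detection p-value, which moves in 770 steps. A second table by the authors holds processed values, probably log2, though a related variance-stabilised scale cannot be told apart from it. Each processed column ranks the probes as the intensities do, its direction is therefore settled, and the column medians were 6.57 to 6.63. They served as an alternative. GenomeStudio and lumi are named, per the submitters' processing notes, with versions and roles not given in the sources used here.

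Intensities were corrected with nec (limma 3.58.1, R 4.3.3, offset 16, control parameters inferred from detection p-values), quantile-normalized over the 4 arrays and put on the log2 scale. The annotation gives a single symbol for 30108 of 47312 probes, several for 8 and none listed for 17196. A gene was represented by its probe detected on most arrays and, among those, the brightest. Detection used a p under 0.05. The script for SDs was tested on simulated data.

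One group is described, so no test between groups was run, and Dixon's outlier criterion served only to choose the readings given in the closing section. The number of arrays limits the precision. Gene lists and members were chosen with earlier results of these data known. Of 807 list entries 757 had a probe, and the others are not analysed here. The genes named are the 5 given markers, the 25 brightest, the 25 of largest SD, KAT7, and, from each list, the 4 brightest, up to 6 detected on no array and any whose role is described. Alternatives covered the detection threshold, the probe rule, background correction, normalization, the filter on undetected genes, the authors' processed values and leaving out each replicate. Promoter sequences and gene order are RefSeq's, on GRCh38.p14, matched by symbol. No source used here gives the array's build, so the coordinates belong to the promoters and not to the probes.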

Additional observations from a re-analysis of the deposited data

Results flagged for a closer look

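For each gene named above that was detected on at least 1 array, and for each list mean, the reading farthest from the other 3 was examined. A result is given here when the gap to the nearest other array, divided by the range of all 4, was above Dixon's 95% critical value for 4 samples. It held for 45 of 256 genes and 3 of 40 list means. Chance alone gives this in about 1 of 20 groups, but 25 of the genes were named for their large SD between these arrays and hold 23 of the cases, so the whole count cannot be set against that rate. Outside them it held for 22 of 231 genes, which share the same 4 arrays and are not independent. In 41 of these 48 cases the array apart was replicate 1, which was the highest in 35 and the lowest in 6. Of the 25 genes of largest SD, 23 had replicate 1 far above the others. On that array the levels were ABRAXAS1 at 13.61, AOC4P at 13.91, CCBE1 at 13.25, CHRNA5 at 12.96, COA8 at 13.59, DDX51 at 13.83, JHY at 10.36, LEP at 11.74, LMOD3 at 12.31, MIGA1 at 12.51 and PCDHB9 at 10.96. They were also QRFPR at 13.53, RHBDL2 at 11.46, SHROOM4 at 12.54, SLC5A8 at 9.89, SNAPC1 at 11.59, TCAF2 at 11.94, TMEM106A at 11.58, TNFSF15 at 9.98, USP49 at 13.03, ZNF483 at 12.28, ZNF577 at 11.49 and ZNF682 at 14.09.

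Further genes highest on replicate 1 by this measure were ABCC3 at 10.80 (nearest other array 9.38) and CCNE1 at 13.22 (nearest other array 13.05). They were also CD68 at 12.28 (nearest other array 10.27), DDR1 at 12.19 (nearest other array 11.31) and IFNE at 8.09 (nearest other array 6.30). Further ones were IL18 at 14.61 (nearest other array 14.15), JAG1 at 11.88 (nearest other array 11.15) and MUC16 at 13.93 (nearest other array 12.51). TYK2 was at 12.06 (nearest other array 11.54). The second detected probe of CCNE1 was highest on replicate 4, at 7.87. Lowest on replicate 1 were ACTA2 at 8.17 (nearest other array 8.58), GRHL2 at 8.60 (nearest other array 8.89), IFIT3 at 8.93 (nearest other array 10.49), NR3C1 at 6.69 (nearest other array 7.54), OVOL2 at 12.24 (nearest other array 12.50) and SKP2 at 12.81 (nearest other array 13.23). On the other arrays the readings apart were ASS1 at 14.23, highest on replicate 2, C19orf12 at 13.99, highest on replicate 4, CDK4 at 14.29, highest on replicate 4, HRAS at 11.67, highest on replicate 3, KLK6 at 12.44, lowest on replicate 2, LIN28B at 10.68, lowest on replicate 3 and TPT1 at 14.71, lowest on replicate 3. Among list means, replicate 1 was highest for serous ovarian carcinoma genes at 11.67 (nearest other array 11.57), Notch pathway at 10.94 (nearest other array 10.70) and cytokines and chemokines at 10.38 (nearest other array 10.11).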

How the results depend on the processing

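No paired analysis was possible because only the siCTRL arrays are described and no comparison between groups was made. Across the alternatives the number of genes detected on all arrays ran from 8808 (every probe of a gene detected) to 11570 (without replicate 3), with 10132 at a detection p under 0.01, and the number detected on none from 6678 to 8388. Members detected over all lists numbered 408 to 538, against 525. Leaving out 1 replicate gave 11305 to 11570 detected genes, 6806 to 6990 detected on none, 525 to 538 list members, a mean of the 5 markers of 13.01 to 13.07, 15 to 21 of the 25 brightest genes shared, a median SD of 0.120 to 0.184, 67 to 616 genes with an SD of 0.5 or more, and an SD of the interferon-stimulated list mean of 0.214 to 0.445. The lowest of the last 4 of these counts and SDs came without replicate 1. With the mean of all detected probes of a gene, the marker mean was 12.29 (13.03 as reported), CCNE1 was at 10.29, and 12 of the 25 brightest genes were shared. Without background correction 196 genes had an SD of 0.5 or more, and replicate 1 was more than 1 below the others for 3 genes, against 13 with an offset of 50 and 19 with the authors' processed values. Without normalization between arrays the medians of detected genes were 9.78, 10.50, 10.35 and 10.41 on replicates 1 to 4, the median SD was 0.364, 1943 genes had an SD of 0.5 or more, the SD of the interferon-stimulated list mean was 0.651, and replicate 1 was more than 1 above the others for 126 genes and more than 1 below for 711. On that scale the mean of the 5 markers was 13.00 on replicate 1 and 12.94 to 13.10 on the others, so their higher mean on replicate 1 did not hold there. Median scaling moved the medians of detected genes to 10.07, 10.42, 10.19 and 10.36. Interferon-stimulated genes lowest on replicate 1 numbered 47 of 50 without normalization, against 85.4% of all detected genes, 44 with median scaling, against 59.7%, and 40 in the other 4 scalings and value sets, against 42.6% to 44.2%. These alternatives were chosen after seeing the data, as were those for the genes with replicate 1 apart. A count or SD was taken as moved when it changed by over 1.5 times, and a level when it changed by over 1 SD between arrays. Of 95 values for the counts and summaries 14 moved, and of 301 values for single lists and marker genes 17; the moved lists with every probe detected include mesothelial (3), fibroblast (2), endothelial (1), leukocyte (0), melanocyte (0) and cancer-testis genes (0). Signal over background limits the calls of dim genes such as CLDN4, KLK11 and BCL2.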

Other observations

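Gene families outside the lists, picked after other values had been seen, were detected in very different shares, beside the 56.1% of all genes. All 31 aminoacyl-tRNA synthetase genes, which charge transfer RNA with amino acids, were detected on all 4 siCTRL arrays, as were 79 of 80 mitochondrial ribosomal protein genes, 44 of 48 proteasome subunit genes and 32 of 36 genes of respiratory complex I. Of 384 olfactory receptor genes 15 were detected and 337 were detected on no array. No keratin-associated protein gene of 81, no bitter taste receptor gene of 25 and no SIGLEC gene of 14 was detected on all 4 arrays, and 1 of 37 beta-defensin genes was. None of 13 interferon alpha genes was detected on all 4 arrays, and 12 of them on none. Zinc finger genes with ZNF symbols were detected for 327 of 493 (66.3%). Solute carrier genes were detected for 202 of 383 (52.7%), near the 56.1% of all genes. Potassium channel genes were detected for 34 of 92 (37.0%) and cytochrome P450 genes for 17 of 58 (29.3%).

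The array also carries probes for small RNA genes. Of 277 small nucleolar RNA genes 102 (36.8%) were detected, and of 560 microRNA genes 25 (4.46%), against 56.1% of all genes. Which transcripts these probes read was not tested. The annotation lists no gene for 17196 probes and several for 8, and 23.1% of these were detected on all 4 arrays, against 49.1% of the probes with a symbol.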
